A study of Mus musculus with 6 samples.

Results

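Proteins that enter the secretory pathway are threaded into the endoplasmic reticulum (ER), folded there by chaperones and disulfide isomerases, and passed on to the Golgi. Those that fail to fold are pulled back and degraded, a process called ER-associated degradation (ERAD). The sensors IRE1, PERK and ATF6 measure the load of unfolded protein and raise the folding genes, in part through XBP1, and mucus-secreting goblet cells of the colon are known for a heavy load. The 40 genes described here were a list written from these roles, but with earlier results of these data known. The list covers folding, ERAD and early secretory traffic, and all 40 were among the 18049 genes of the table.

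Expression was measured by total RNA-Seq in colonic crypts of mice of a Lynch syndrome model, with 3 Control mice and 3 GSK503-treated mice and 1 library per mouse. All mice of both groups carried *Villin-Cre*, active in the intestinal epithelium, and a humanized knockin of the *Tgfbr2* gene, and all received a Western-style diet from 8 weeks of age. GSK503 inhibits the histone methyltransferase EZH2 and was injected into the tail vein at 200 μg/kg in PBS, with 2 injections per week for 9 weeks, whereas Control mice received 20% captisol in PBS. Age at sampling is not given in the sources used here. The question was how EZH2 inhibition altered the transcriptome of the colonic epithelium.

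Values are estimated counts scaled to library size (CPM) after the authors' TMM scaling. At the depth of these libraries, 3 counts correspond to at most 0.0271 CPM, a floor for counting error only. Epithelial markers, which should define crypts, summed to 9876 to 12184 CPM, against 12.5 to 20.2 CPM for T cell markers. The sex-linked genes separated the groups completely. *Xist*, made by the inactive X chromosome, was at 0.419, 0.805 and 0.936 CPM in Control mice 1, 2 and 3 and at 1236, 825 and 982 CPM in GSK503-treated mice 1, 2 and 3. The Y-linked *Eif2s3y* was at 51.3 to 59.5 CPM in the Control mice and at 0 in all 3 treated mice. GSK503 treatment and sex therefore cannot be told apart in any comparison below, nor can GSK503 and the captisol of the vehicle if the treated mice received none, and no member lies on the X or Y chromosome. In GSK503-treated mouse 3, smooth muscle markers summed to 122 CPM, against 4.26 and 4.52 CPM in the other treated mice and 20.9 to 90.1 CPM in the Control mice.

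Promoters of ER folding genes are known for the ER stress response element (ERSE), CCAAT and CCACG held 9 bases apart, which is bound by NF-Y with ATF6 or XBP1. The ERSE-II, with ATTGG and CCACG held 1 base apart, and the UPRE, TGACGTGG, are related elements. RefSeq promoters of 300 bases, from 250 before to 50 after the transcript start, were found for 31 of the 40 genes and searched on both strands. Exact ERSE matches were present in the promoters of 10 of the 31 genes (32.3%), as compared with 39 of all 32851 promoters (0.119%) and with 22 of the 12654 tested genes that have a promoter (0.174%). Thus 10 of these 22 genes were members. The matches are shown because the ERSE is a known element of such promoters. Only the ERSE, the ERSE-II, the UPRE and its core ACGTG were searched, all chosen as known elements. Other sequence features were not compared. Each is given 5′ to 3′ along the gene with 10 bases on either side, and capitals mark both ends of the element, which read CGTGG and ATTGG where it lies in the opposite orientation. Positions are GRCm39, found by an exact match of the RefSeq promoter, which was taken from GRCm38.p6.
Calr ERSE (chr8:85573694-85573732, minus strand): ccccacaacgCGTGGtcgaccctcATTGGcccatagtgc
Canx ERSE (chr11:50216617-50216655, minus strand): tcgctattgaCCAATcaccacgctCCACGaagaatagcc
Creld2 ERSE (chr15:88703713-88703751, plus strand): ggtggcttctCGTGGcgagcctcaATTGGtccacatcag
Derl3 ERSE (chr10:75729066-75729104, plus strand): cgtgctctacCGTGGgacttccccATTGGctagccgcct
Dnajc3 ERSE (chr14:119175229-119175267, plus strand): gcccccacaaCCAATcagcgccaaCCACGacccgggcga
Ero1b ERSE (chr13:12580553-12580591, plus strand): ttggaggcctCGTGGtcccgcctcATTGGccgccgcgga
Hsp90b1 ERSE (chr10:86541492-86541530, minus strand): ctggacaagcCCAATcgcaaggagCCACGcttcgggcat
Hsp90b1 ERSE (chr10:86541387-86541425, minus strand): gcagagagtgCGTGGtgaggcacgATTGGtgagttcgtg
Hspa5 ERSE (chr2:34662027-34662065, plus strand): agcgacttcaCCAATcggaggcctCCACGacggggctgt
Pdia6 ERSE (chr12:17316482-17316520, plus strand): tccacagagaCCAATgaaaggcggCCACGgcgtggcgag
Syvn1 ERSE (chr19:6096552-6096590, plus strand): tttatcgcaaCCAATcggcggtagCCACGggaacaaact

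*Hsp90b1* held 2 ERSE matches and each of the other 9 genes held 1, starting between 212 and 44 bases before the transcript start. An ERSE-II was found in 2 members (6.45%, against 0.0711% of the tested genes that have a promoter). A UPRE was found in 3 members (9.68%, against 0.996% of these tested genes). Of the 71 other ER genes with a promoter, none held an ERSE or an ERSE-II and 6 held a UPRE (8.45%). The short core ACGTG, which is part of the UPRE and can overlap the CGTGG end of an ERSE, was common, in 15 of the 31 members (48.4%), 42 of the 71 other ER genes (59.2%), 27.4% of tested genes and 19.6% of all promoters. In the lines below, capitals mark both ends of the ERSE-II or the whole UPRE, which lies in the opposite orientation in *Kdelr3*.
Dnajb11 ERSE-II (chr16:22676592-22676612, plus strand): cccggcggcgATTGGcCCACG
Herpud1 ERSE-II (chr8:95112995-95113025, plus strand): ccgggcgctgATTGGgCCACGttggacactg
Kdelr3 UPRE (chr15:79400569-79400596, plus strand): ggccgccccgCCACGTCAccgcgcggcc
Txndc11 UPRE (chr16:10952481-10952508, minus strand): gaagtgtggcTGACGTGGagagtccggg
Txndc5 UPRE (chr13:38712011-38712038, minus strand): gcctcgccgcTGACGTGGcgctagccgc

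The promoter of *Hspa5*, which encodes the chaperone BiP and is the usual reporter of ER stress, is given for the 250 bases before its start. Capitals mark its exact ERSE ends and an ACGTG core farther upstream.
Hspa5 upstream (chr2:34661852-34662101, plus strand): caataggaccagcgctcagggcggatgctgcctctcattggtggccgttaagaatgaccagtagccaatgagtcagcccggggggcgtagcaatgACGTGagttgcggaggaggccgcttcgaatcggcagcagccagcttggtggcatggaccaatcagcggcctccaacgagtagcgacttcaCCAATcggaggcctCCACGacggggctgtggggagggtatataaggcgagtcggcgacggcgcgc

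**Figure D1:**
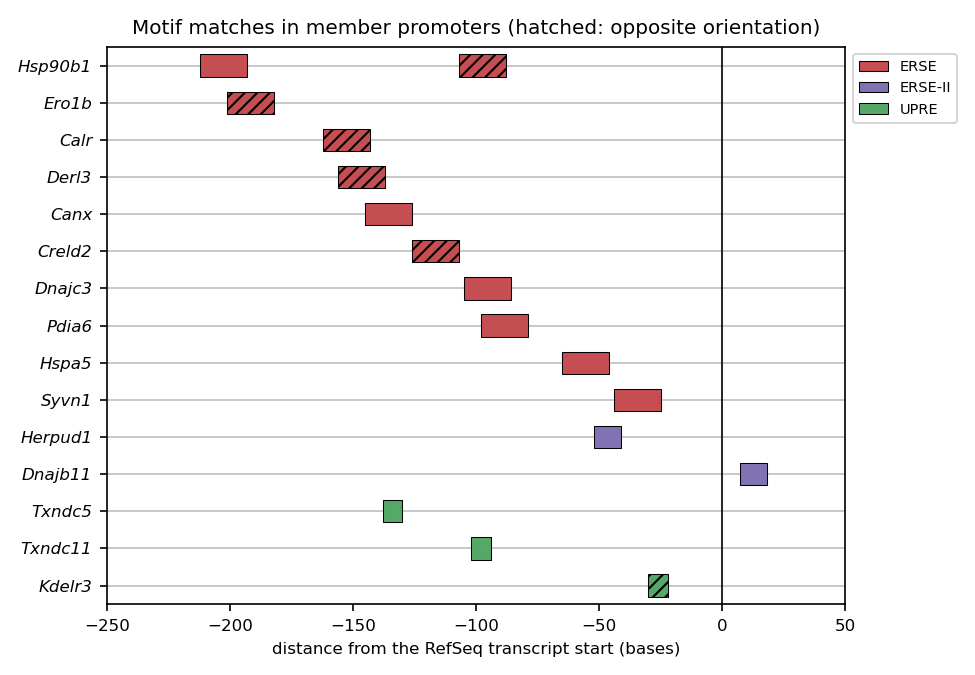
Exact motif matches in the promoters of 15 members, by distance from the RefSeq transcript start in bases. Each grey line is a promoter of 300 bases, bars are matches (red ERSE, purple ERSE-II, green UPRE) and hatched bars lie in the opposite orientation. All 11 ERSE matches, in 10 genes, lie before the start.

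ER folding and secretory genes were as a group modestly higher in GSK503-treated crypts. Of the 40 genes, 36 showed a higher mean log2 value after treatment, as did 8159 of all 16670 genes tested. The median log2FC was 0.23, as compared with -0.01 over all genes tested. For 23 genes (57.5%), each of the 3 treated mice exceeded each of the 3 Control mice, which was the case for 9.84% of all genes tested, and *Pdia3* was the 1 member with the groups apart in the lower direction (9.22% of all genes tested). The changes were small, with log2FC between -0.19 and 0.61, and few passed the test of single genes. *Manf* and *Ern2* passed an adjusted *P* of 0.05 in limma with Benjamini-Hochberg adjustment over all genes, where 0.642% of all genes passed, and *Yif1b* was the third gene below 0.1 in the higher direction (1.41% of all genes). No member passed 0.1 in the lower direction (0.558% of all genes). At an unadjusted *P* below 0.05, limma placed 22 members higher (7.06% of all genes) and 1 lower (6.27% of all genes). Without GSK503-treated mouse 2, no member passed an adjusted *P* of 0.1 (37 of 16359 genes were higher, 0.226%), and 13 were higher at an unadjusted *P* below 0.05 (4.30% of all genes).

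The scaling set the size of this shift. When values were scaled by library size only, the median log2FC of all genes was -0.12 and that of the members 0.12. The members whose treated mice all exceeded the Control mice then numbered 7 (4.74% of all genes), and 2 lay below without overlap (21.3% of all genes). A higher mean was then found for 29 of 40 members and for 5017 of all 16653 genes. Of all genes called at an adjusted *P* below 0.1, 71.6% were higher with the TMM scaling and 21.8% with library size. Relative to the median of all genes, the members' median thus stood about as far above it as before. As these are bulk libraries, fewer cells of a type and less RNA per cell cannot be told apart.

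**Figure D2:**
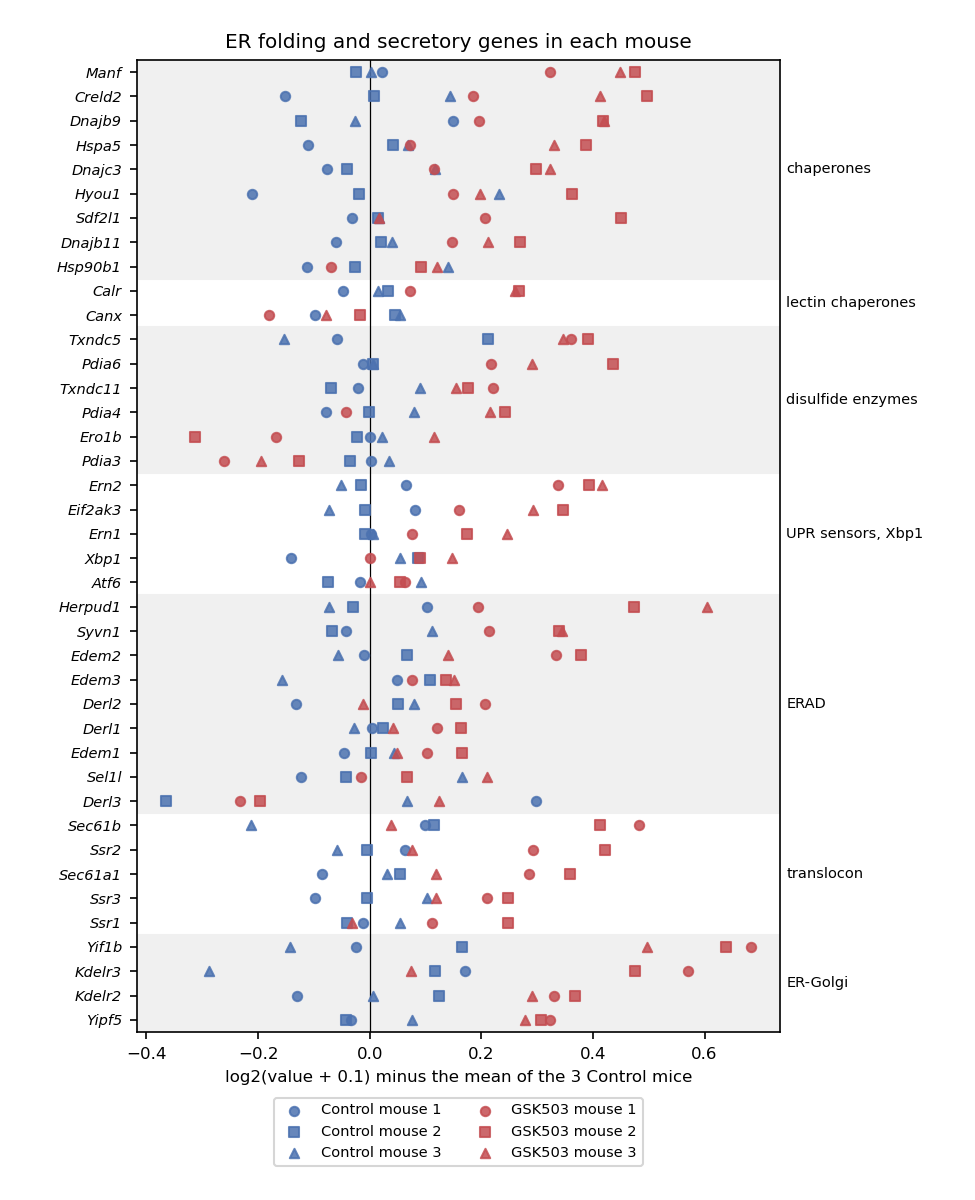
Values of the 40 genes in each mouse, grouped by role. The x axis gives log2(value + 0.1) minus the mean of the 3 Control mice, with Control mice in blue and GSK503-treated mice in red. For 23 genes all red points lie right of all blue points, and for *Pdia3* all lie left.

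The mice of a group also differed from each other in a way shared by many members. Summed over the 40 genes, the level was 8263, 8776 and 8886 CPM in Control mice 1, 2 and 3 and 9149, 10183 and 9806 CPM in GSK503-treated mice 1, 2 and 3. With the TMM scaling, the 3 treated sums lay above the 3 Control sums. The totals over all genes were also higher in treated mice (1035854 to 1076042 CPM) than in Control mice (975566 to 982686 CPM). The separation of the member sums rests on this scaling. GSK503-treated mouse 2 had the highest value of its group for 21 of the 40 genes and the lowest for 1. Mouse 1 had the lowest treated value for 22 genes. The coefficient of variation within the Control group had a median of 5.89%, from 0.515% for *Ern1* to 24.3% for *Derl3*.

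Genes of the chaperone system around BiP all had higher means after GSK503. This group of 9 holds BiP itself (*Hspa5*), its nucleotide exchange factor *Hyou1*, its J-domain partners *Dnajb9*, *Dnajb11* and *Dnajc3*, the HSP90 of the ER (*Hsp90b1*), and *Sdf2l1*, *Creld2* and *Manf*. Their median log2FC was 0.25. For 5 of the 9, each treated mouse exceeded each Control mouse (9.84% of all genes tested). *Manf*, a small secreted protein of the ER that is induced by ER stress, had 86.5, 83.7 and 85.3 CPM in Control mice 1, 2 and 3 and 107, 118 and 116 CPM in GSK503-treated mice 1, 2 and 3. Every treated mouse exceeded every Control mouse by more than the whole spread of the Control group. Its log2FC was 0.42 (SE 0.07, limma adjusted *P* = 0.0372), a 1.33-fold increase.

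*Hspa5* had 684, 760 and 774 CPM in the Control mice and 777, 966 and 929 CPM in the treated mice. The groups did not overlap, but Control mouse 3 and GSK503-treated mouse 1 were almost level. The log2FC was 0.26 (limma adjusted *P* = 0.335). *Creld2*, which encodes an ER protein with disulfide isomerase activity, had 52.4, 58.6 and 64.4 CPM in the Control mice and 66.2, 82.3 and 77.6 CPM in the treated mice (log2FC 0.36, limma adjusted *P* = 0.168). *Dnajb9* and *Dnajb11* were also higher in each treated mouse than in each Control mouse, with log2FC of 0.34 and 0.21 (limma adjusted *P* = 0.214 and 0.235). *Hyou1*, *Dnajc3*, *Sdf2l1* and *Hsp90b1* overlapped between the groups, the first 3 with log2FC of 0.24, 0.25 and 0.22. *Hsp90b1* had 883, 937 and 1052 CPM in the Control mice and 910, 1017 and 1038 CPM in the treated mice, with a log2FC of 0.05 and a 95% interval from -0.18 to 0.28.

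The lectin chaperones hold glycoproteins while they fold, and neither of the 2 passed the test. Calreticulin (*Calr*) had 1370, 1449 and 1431 CPM in the Control mice and 1488, 1705 and 1695 CPM in the treated mice. Its groups did not overlap (log2FC 0.20, 95% interval -0.03 to 0.43, limma adjusted *P* = 0.457). Its membrane-bound relative calnexin (*Canx*) had 677, 748 and 753 CPM in the Control mice and 640, 717 and 687 CPM in the treated mice, with overlapping groups and a log2FC of -0.09 (95% interval -0.29 to 0.11). The difference between the 2 genes was not tested.

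Of the 6 disulfide enzymes, which make and rearrange disulfide bonds, 4 were higher and 2 lower on average, and none passed the test. *Pdia6* had 219, 222 and 222 CPM in the Control mice and 257, 299 and 270 CPM in the treated mice, a gap much wider than the Control spread (log2FC 0.31, SE 0.08, limma adjusted *P* = 0.107). *Txndc5* had 468, 565 and 438 CPM in the Control mice and 626, 639 and 620 CPM in the treated mice (log2FC 0.37, limma adjusted *P* = 0.153). *Txndc11* was also higher without overlap, with a log2FC of 0.18. In contrast, *Pdia3*, the isomerase that works with calreticulin and calnexin on glycoproteins, had 479, 467 and 490 CPM in the Control mice and 399, 438 and 418 CPM in the treated mice. All treated mice were below all Control mice (log2FC -0.19, limma adjusted *P* = 0.308). *Pdia4* overlapped between the groups, as did the oxidase *Ero1b*, whose log2FC was -0.12 (95% interval -0.43 to 0.18).

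Among the sensors of unfolded protein, *Ern2* passed the test. It encodes IRE1β, the form of IRE1 known from mucus-secreting epithelium. *Ern2* had 114, 108 and 105 CPM in Control mice 1, 2 and 3 and 137, 143 and 145 CPM in GSK503-treated mice 1, 2 and 3, with no overlap. Its log2FC was 0.38 (SE 0.07, limma adjusted *P* = 0.0471). The ubiquitous IRE1α gene *Ern1* had 61.5, 61.0 and 61.6 CPM in the Control mice and 64.7, 69.2 and 72.8 CPM in the treated mice (log2FC 0.17, limma adjusted *P* = 0.372). *Eif2ak3*, which encodes PERK, was above the Control range in all treated mice, with a log2FC of 0.27 (limma adjusted *P* = 0.187). *Atf6* and *Xbp1*, the transcription factors of the response, overlapped between the groups. Their log2FC was 0.04 (95% interval -0.12 to 0.20) and 0.08 (95% interval -0.11 to 0.26), and the table gives 1 value per gene, so that spliced and unspliced *Xbp1* were not separated.

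Of the 9 ERAD genes, none was lower in all treated mice than in all Control mice (9.22% of all genes tested). For 5, each treated mouse exceeded each Control mouse (9.84% of all genes). *Herpud1*, a scaffold of the membrane ubiquitin ligase complex, showed the largest difference of these, with 154, 141 and 137 CPM in the Control mice and 164, 200 and 219 CPM in the treated mice (log2FC 0.42, SE 0.11, limma adjusted *P* = 0.119). The ligase *Syvn1* (HRD1) had 35.4, 34.8 and 39.4 CPM in the Control mice and 42.3, 46.2 and 46.4 CPM in the treated mice (log2FC 0.30, limma adjusted *P* = 0.159). *Sel1l*, the partner of this ligase, overlapped between the groups (log2FC 0.09). Among the mannosidase-like EDEM genes, which mark glycoproteins for disposal, *Edem2* and *Edem1* were above the Control range in all treated mice, with log2FC of 0.28 and 0.11, whereas *Edem3* overlapped (log2FC 0.12). The derlins form part of the exit channel. *Derl1* was above the Control range, *Derl2* overlapped, and *Derl3*, known from plasma cells and exocrine glands, was near the bottom of the members with 1.21 ± 0.292 CPM (SD, n = 3) in the Control mice and 1.10 ± 0.169 CPM (SD, n = 3) in the treated mice and overlapping groups.

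For the translocon, which passes new chains into the ER, all 5 members were higher on average, with a median log2FC of 0.25. *Sec61a1*, the channel itself, had 284, 312 and 307 CPM in the Control mice and 367, 386 and 327 CPM in the treated mice, and the groups did not overlap (log2FC 0.25, limma adjusted *P* = 0.237). *Sec61b* had 80.0, 80.9 and 64.4 CPM in the Control mice and 104, 99.4 and 76.7 CPM in the treated mice, so that GSK503-treated mouse 3 fell within the Control range (log2FC 0.31). The same mouse was the lowest of the treated group for all 5 genes, which also include the translocon-associated *Ssr1*, *Ssr2* and *Ssr3*. Their log2FC was 0.11, 0.26 and 0.19.

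Genes of traffic between ER and Golgi showed the largest median, 0.35, among the 7 roles of the members, but this role holds only 4 genes. The 26 genes of this role among the other ER genes had a median of 0.13, with 21 higher and 5 lower on average. *Yif1b*, a membrane protein of early secretory traffic, had 14.5, 16.6 and 13.4 CPM in Control mice 1, 2 and 3 and 23.7, 23.0 and 20.9 CPM in GSK503-treated mice 1, 2 and 3. The groups were well apart, with a log2FC of 0.61 (SE 0.11, limma adjusted *P* = 0.0519), a 1.52-fold difference. Its relative *Yipf5* had 42.3, 42.0 and 45.6 CPM in the Control mice and 54.2, 53.6 and 52.5 CPM in the treated mice (log2FC 0.30, limma adjusted *P* = 0.107). The KDEL receptors return escaped chaperones to the ER. *Kdelr2* had 118, 140 and 129 CPM in the Control mice and 162, 166 and 157 CPM in the treated mice (log2FC 0.33, limma adjusted *P* = 0.106), and *Kdelr3* overlapped, with a log2FC of 0.37.

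**Figure D3:**
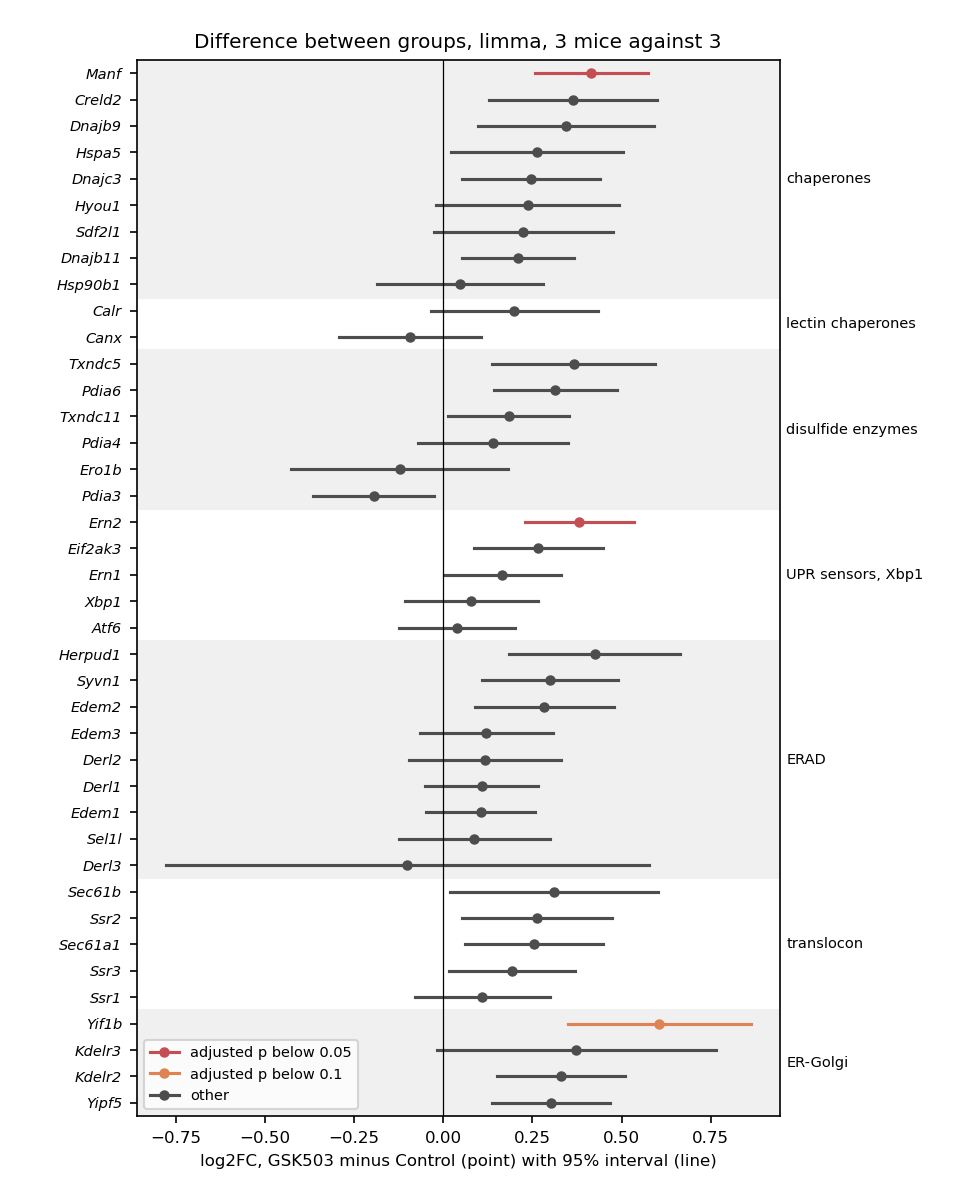
Difference between GSK503-treated and Control mice for the 40 genes by role. Points are log2FC and lines their 95% intervals from limma (3 mice against 3). *Manf* and *Ern2* (red) passed an adjusted *P* of 0.05 and *Yif1b* (orange) 0.1, and most other points lie right of 0.

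Members with and without an ERSE had similar medians, and the difference between them was not tested. The 10 genes with an exact ERSE had a median log2FC of 0.22 (range -0.12 to 0.36), and the 21 genes with a promoter but no ERSE had a median of 0.19 (range -0.19 to 0.61). The groups did not overlap in the higher direction for 5 of the 10 and for 11 of the 21 (9.84% of all genes tested). *Yif1b* held no match to the ERSE, ERSE-II or UPRE in its promoters, while *Manf* and *Ern2* were among the 9 members whose promoters were not used here.

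When set per kilobase of the Ensembl canonical transcript, the levels of the members spanned a wide range in Control mice. *Calr* was highest, at 619 ± 18.1 CPM per kb (SD, n = 3), followed by *Hsp90b1* at 338 ± 30.5 and *Canx* at 191 ± 11.1 CPM per kb. *Canx* and the next gene, *Txndc5* (172 ± 23.2 CPM per kb), did not differ beyond their spread. *Ern2* stood at 37.4 ± 1.56 CPM per kb and *Ern1* at 8.76 ± 0.0452 CPM per kb, and the lowest were *Ero1b* at 2.85 ± 0.0447 and *Derl3* at 0.906 ± 0.22 CPM per kb.

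The remaining ER machinery was read from a list of 88 other genes of translocation, glycosylation, folding, ERAD, vesicle traffic and secretory transcription, of which 87 were in the table. The mean was higher after treatment for 71 of them, and the median log2FC was 0.14. With library size scaling these values were 50 and 0.02, and 5017 of all 16653 genes then had a higher mean. At an unadjusted *P* below 0.05 in limma, 12 were then higher (3.56% of all genes) in place of 31 (7.06% of all genes). The groups did not overlap in the higher direction for 38 (43.7%, against 9.84% of all genes tested). In the lower direction this held for 3 (9.22% of all genes). Limma called 7 higher (1.41% of all genes) and none lower (0.558% of all genes) at an adjusted *P* below 0.1. Without GSK503-treated mouse 2, none of these other ER genes was called at 0.1 (0.226% of all genes were higher). *Fkbp11*, a prolyl isomerase of the ER, had 7.52, 6.64 and 7.24 CPM in the Control mice and 20.5, 20.6 and 12.2 CPM in the treated mice (log2FC 1.27, SE 0.20, limma adjusted *P* = 0.0275). *Spdef*, the transcription factor of goblet cell maturation, had 79.7, 90.3 and 65.0 CPM in the Control mice and 114, 137 and 122 CPM in the treated mice (log2FC 0.68, limma adjusted *P* = 0.0459). *Bhlha15* (MIST1), a transcription factor of secretory cells, had 6.25, 2.91 and 4.62 CPM in the Control mice and 10.3, 14.4 and 11.3 CPM in the treated mice. Its groups did not overlap either, with a log2FC of 1.41 and a limma adjusted *P* of 0.0505.

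The other 4 genes were *Tmed9* and *Lman1*, which carry cargo between ER and Golgi, the ERAD ubiquitin-conjugating enzyme *Ube2g2*, and *Agr2*, the isomerase known from goblet cells. Their log2FC was 0.40, 0.32, 0.39 and 0.79, with a limma adjusted *P* between 0.0505 and 0.0766. *Sec24b* and *Sec63* had the lowest log2FC of the list, -0.42 and -0.29 (named after their values were seen).

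**Figure D4:**
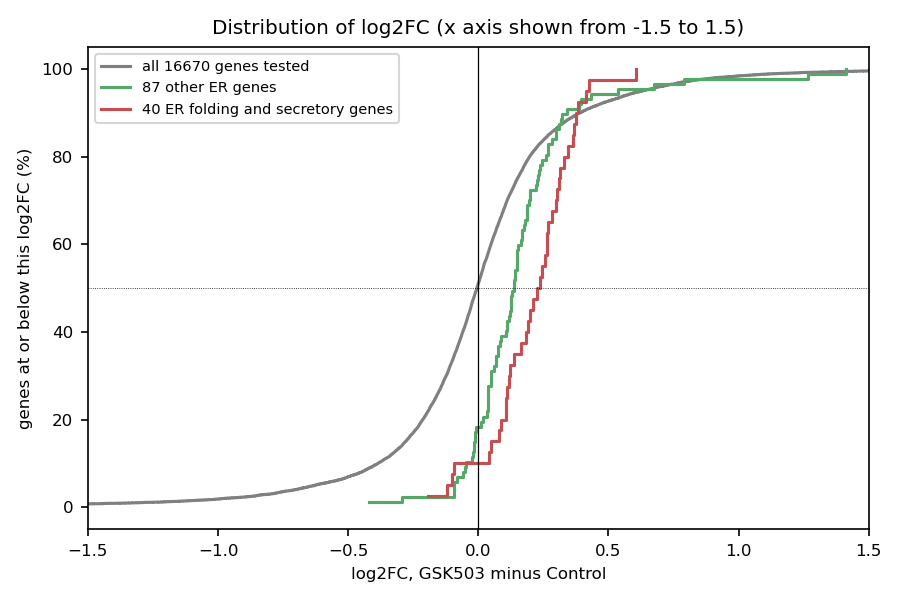
Cumulative distribution of log2FC (GSK503 minus Control) for the 40 ER folding and secretory genes (red), 87 other ER genes (green) and all 16670 genes tested (grey). The y axis gives the percentage of genes at or below each log2FC. The medians are 0.23, 0.14 and -0.01.

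Markers of goblet cells moved with these genes and by more. The 10 goblet cell markers summed to 19388, 11061 and 11730 CPM in Control mice 1, 2 and 3 and to 33530, 49202 and 51830 CPM in GSK503-treated mice 1, 2 and 3. Most of each sum came from *Clca1* and *Fcgbp*. *Clca1* had 3147 to 7984 CPM in the Control mice and 15898 to 30267 CPM in the treated mice. *Fcgbp* had 5010 to 8436 CPM and 12718 to 18361 CPM, respectively. Of the 10 markers, 9 were higher on average. Without overlap, 8 were higher (9.84% of all genes tested), *Galnt12* and *Ccn3* being the exceptions. *Agr2* and *Spdef* are also in the list of other ER genes. Within the groups the order of the mice differed in part, and that of the goblet cell sums was set mainly by *Clca1* and *Fcgbp*. GSK503-treated mouse 1 had the lowest treated sum for both the goblet cell markers and the 40 members, whereas the highest treated sums were in mouse 3 and mouse 2, respectively. Control mouse 1 had the highest goblet cell sum of its group and the lowest member sum. Markers of enteroendocrine cells, another secretory type, summed to 182 to 227 CPM in the Control mice and 121 to 154 CPM in the treated mice, and 7 of the 8 had a lower mean. Paneth cell markers summed to 75.5 to 466 CPM in the Control mice and 1180 to 1887 CPM in the treated mice, most of it *Ang4*, and their defining gene *Lyz1* was at 0.579 to 3.10 CPM in all mice. The part of goblet or Paneth cell number in the differences was not tested.

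Plasma cells also carry much ER. The 10 B and plasma cell markers in the table summed to 111, 198 and 72.5 CPM in the Control mice and to 4.73, 3.39 and 226 CPM in the treated mice, and 9 of them were lower on average. The part of these cells in the differences was not tested. Macrophage markers summed to 89.8 to 124 CPM in the Control mice and 62.0 to 116 CPM in the treated mice, and fibroblast markers to 60.2 to 77.1 and 25.1 to 113 CPM. None of the markers searched was at 0 in all mice. For epithelial markers, all 7 were higher on average and 2 were higher without overlap (9.84% of all genes tested). Absorptive colonocyte markers summed to 3257 to 3393 CPM in the Control mice and 2476 to 5567 CPM in the treated mice.

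**Figure D5:**
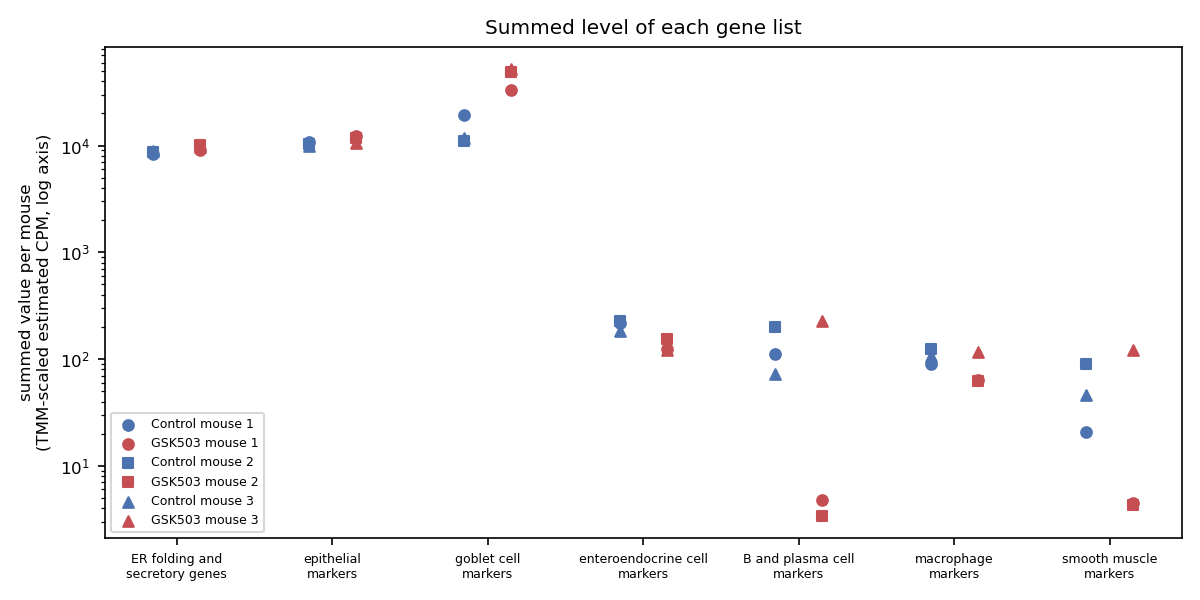
Summed value of each gene list per mouse, in TMM-scaled estimated CPM on a log axis. The separation of the groups for the 40 genes rests on this scaling. Control mice are blue and GSK503-treated mice red, with 1 marker shape per mouse number. Goblet cell markers lie between 11061 and 19388 CPM in the Control mice and between 33530 and 51830 CPM in the treated mice, and the sums of the 40 genes between 8263 and 8886 CPM and between 9149 and 10183 CPM.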

How the data were processed

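The 6 libraries, 3 Control and 3 GSK503 (1 per mouse), were grouped by their sample labels. STAR aligned the 76-base read pairs to GRCm39, RSEM estimated the counts, and the authors applied the TMM scaling of edgeR. The deposited signal is therefore an estimated CPM of the scaled library. Whether counting used strand is not given in the sources used here. The worth of 1 count was read from the low values (84.9% to 86.8% of values below 100 counts lay within 0.01 of a whole count), which gave library totals of 108 to 135 (in units of 1e6 counts).

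Groups were compared with limma (version 3.58.1, R 4.3.3) on log2(value + 0.1) with an intensity trend and Benjamini-Hochberg adjustment, over the 16670 genes with at least 0.1 in at least 3 mice (1379 left out), so all 40 members were tested. A log2FC is on this scale and understates low genes. Because the table holds scaled values, the study's edgeR test was not repeated. On simulated data of 16670 genes with this comparison's spread, 152 of 200 genes changed by 2 on the log2 scale were recovered, with 13 false calls. The members' log2FC were smaller (-0.19 to 0.61), and recovery of changes of that size was not simulated. A *P* value sets the difference between the groups against the spread between these mice, which limma moderates by the spread of genes of similar level. The 19 alternatives changed the scaling, the pseudocount (0.02, 0.5 or 1), the low-value filter, the trend, robustness, the genes tested (without X- and Y-linked genes or without genes above 1% of a library), the test (limma-voom), the replicate block, or left out 1 mouse.

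The members, lists and motifs were chosen with earlier results of these data known. All members could be named, and of the other ER genes the 10 with the smallest *P* among those below an adjusted *P* of 0.1. Chromosomes came from GENCODE vM39, where 95.4% of symbols matched 1 gene. Protein sequences were not used here, and the full genotype of the mice is not reported here. Python 3.11.15, pandas 2.3.3 and matplotlib 3.10.9 made tables and figures.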

Additional observations from a re-analysis of the deposited data

How the results depend on the processing

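The number of members called was small and depended on the settings. At an adjusted *P* below 0.05, 2 members were called as reported, 3 with median-of-ratios scaling, the stricter filter, robust empirical Bayes or limma-voom, 0 with library size scaling, without the intensity trend or with the replicate block, 1 with a pseudocount of 0.02 or without X- and Y-linked genes, and 0 to 1 when any 1 mouse was omitted. At an adjusted *P* below 0.1, 3 members were higher as reported (1.41% of all genes). The number was 6 with median-of-ratios scaling (1.63% of all genes) and 5 with a filter of at least 1 CPM in 3 mice (1.87%). It was 0 without the intensity trend (0.126% of all genes) or with the replicate block (0.438%). With each mouse left out it was 0 to 6. Without GSK503-treated mouse 2 it was 0 (0.226% of all genes), and without mouse 3 of that group 6 (2.16%). It was 1 without Control mouse 2 (0.532% of all genes) or 3 (0.502%). Library size scaling gave 1 lower member at 0.1 (*Pdia3*, limma adjusted *P* = 0.0701), where 795 of all 16653 genes were lower. The members' median log2FC was then 0.12. At an unadjusted *P* below 0.05, 9 members were then higher (3.56% of all genes), where 22 were reported (7.06% of all genes). With each mouse left out, members higher at an unadjusted *P* below 0.05 numbered 13 to 21 (4.30% to 8.55% of all genes). The 13 came without GSK503-treated mouse 2 (4.30% of all genes). Over the 19 alternatives, 36 members had a higher mean in 18, and the median log2FC lay between 0.18 and 0.24 outside library size scaling. *Manf* passed an adjusted *P* of 0.05 in 10 of 19 alternatives (range 0.0364 to 0.232), *Ern2* in 8 (0.0431 to 0.243) and *Yif1b* in 5 (0.0408 to 0.25), and no member or other ER gene that was called changed direction.

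Of the other ER genes, 2 were called at an adjusted *P* below 0.05 as reported, 4 with median-of-ratios scaling, the stricter filter or robust empirical Bayes, 1 with a pseudocount of 1 or 0.02 or with the replicate block, 0 without the trend, and 0 to 2 with each mouse left out. At 0.1, 7 were higher as reported (1.41% of all genes). The number was 0 without the trend (0.126% of all genes), 3 with the replicate block (0.438%) and 0 to 8 with each mouse left out. Without GSK503-treated mouse 2 it was 0 (0.226% of all genes), and without mouse 3 of that group 8 (2.16%). It was 3 without Control mouse 2 (0.532% of all genes), Control mouse 3 (0.502%) or GSK503-treated mouse 1 (0.715%). Without Control mouse 1 it was 4 (1.06% of all genes). Library size scaling gave 2 lower genes, where 795 of all 16653 genes were lower. The cause of these changes was not tested. The labels do not say whether the replicate numbers pair the mice. Deviations of same-numbered mice correlated at 0.03, -0.13 and -0.12 across genes, which with 3 mice per group cannot decide it. Over all genes, 107 were called at 0.05 as reported, 16 without the trend, 33 with the replicate block, 261 with library size scaling and 104 with limma-voom on the recovered estimated counts. Median-of-ratios scaling gave 125, the stricter filter 128 and robust empirical Bayes 144. A pseudocount of 0.02 gave 93, a pseudocount of 1 gave 105, and leaving out X- and Y-linked genes gave 87. With each mouse left out the number was 29 to 216. With library size scaling 21.8% of calls at 0.1 were higher, as compared with 71.6%.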

Other observations

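Outside the ER lists, 12 tested genes carried an exact ERSE in their RefSeq promoter. These included *Hnrnpa3*, *Acacb* and *Alg12*, named after their values were seen. Of the 12, 5 were higher on average after GSK503, and the median log2FC was -0.07 (range -0.67 to 0.40). Without overlap between the groups, 1 was higher (9.84% of all genes tested) and 1 lower (9.22% of all genes). The 10 members with an ERSE had a median of 0.22, with 7 of 10 higher. The difference between these lists was not tested.

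Tuft cell markers, which mark a chemosensory epithelial type, were also higher in treated mice. The 5 markers summed to 26.6 to 39.0 CPM in the Control mice and 48.4 to 57.0 CPM in the treated mice. Of the 5, 4 were higher without overlap between the groups (9.84% of all genes tested). The smallest limma adjusted *P* was 0.0522, for *Trpm5*, so that no marker passed 0.05.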
